A study of Capra hircus with 2 samples.

Results

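TCHH (trichohyalin), KRT25 and KRT27 are genes of the inner root sheath of the hair follicle, and their UMI counts were followed through single cells of cashmere goat skin. The members were chosen by symbol, 3 of the 27137 features of the deposited matrix, and KRT35, a keratin of the hair shaft, was set beside them. The inner root sheath is the layer of the follicle that surrounds the growing hair shaft, hardens before the shaft does and is shed before the fibre leaves the skin. KRT25 and KRT27 are type I keratins that pair with type II keratins such as KRT71 and KRT74 to form its filaments. Trichohyalin is a large protein of the same layer and of the hair medulla. It is modified by peptidylarginine deiminases (PADI enzymes) and cross-linked to the keratins by transglutaminases such as TGM3.

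The study sampled anagen skin from the shoulder blade region of 2 healthy Liaoning cashmere goats, which differ in fibre: CT-LCG is a goat of the coarse type, and FT-LCG one of the fine type. The skin was made into single-cell suspensions with removal of red and dead cells, and 1 droplet library was sequenced from each goat. Which goat has which fibre is not in the sample labels, so each cell was assigned by the cell table deposited with the matrix. No genotype, age or treatment is given for the goats. With 1 library per fibre type no test between types can be made. All intervals below are 95% exact counting intervals, and they hold neither the spread between animals nor that between libraries.

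CT-LCG had 3443 kept cells with 27890472 UMIs and a median of 2314 UMIs per cell, and FT-LCG had 9608 kept cells with 85400323 UMIs and a median of 6121.5. Another 2659 and 1589 barcodes with 500 genes or fewer were left out by the authors. The libraries shared 11 barcodes among their kept cells, and 1 of these was a cell with high counts of the 3 genes. Clusters were named from marker lists, and no cluster carried enough inner root sheath markers to take that name. The sheath markers were kept out of the genes that built the clusters. That outcome was thus partly set in advance and does not show that sheath cells were missing. With the listed genes included, 65.1% of the FT-LCG UMIs of the 3 genes fell in 1 cluster, also unnamed. KRT28, KRT71, KRT72 and KRT73, the other keratins of the sheath that were looked for, were not among the features under these symbols. KRT26 and KRT74 were thus the keratins of the sheath that could be set beside the 3 genes by name. Unnamed features lie between keratin genes in the reference, LOC102177231 between KRT74 and KRT5 and LOC102168573 between KRT27 and KRT10. Whether these are keratins of the sheath was not tested.

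Most UMIs of the 3 genes in FT-LCG came from a few cells. A cell was called member-high when TCHH, KRT25 and KRT27 together made up at least 50 of every 10000 of its UMIs and at least 50 UMIs in all. FT-LCG had 39 such cells (0.406%, 95% interval 0.289% to 0.555%) and CT-LCG had 16 (0.465%, 0.266% to 0.754%). The 39 FT-LCG cells held 91.8% of that library's TCHH UMIs, 86.2% of its KRT25 UMIs and 90.8% of its KRT27 UMIs, and 3 cells alone held 50% of TCHH. The 16 CT-LCG cells held 11.5%, 37.9% and 32.4%. The counts were thus concentrated in few cells in FT-LCG, less so in CT-LCG for the keratins, and spread over many CT-LCG cells for TCHH, where 511 cells held 50%.

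The single cells differed widely in height. The 5 highest TCHH counts in FT-LCG were 13037, 6958, 6252, 3860 and 3422 UMIs, against 233, 116, 77, 73 and 47 in CT-LCG. For KRT25 the 5 highest FT-LCG cells held 10408, 9319, 6120, 5266 and 4366 UMIs, against 1036, 329, 256, 255 and 158 in CT-LCG. KRT27, which lies near KRT25 in the type I keratin cluster, reached 14717, 5797, 5727, 2060 and 1892 UMIs in FT-LCG and 435, 255, 251, 104 and 69 in CT-LCG. At least 1000 UMIs were counted in 7 FT-LCG cells for TCHH, in 12 for KRT25 and in 7 for KRT27, while 1 CT-LCG cell passed that mark, for KRT25. For each gene the highest FT-LCG cell held more than 10 times the UMIs of the highest CT-LCG cell, and for KRT25 this rested on 1 CT-LCG cell that stood far above the next.

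Member-high is a range of a score and not a cell type. In FT-LCG the lowest cells inside held 50 to 99 UMIs of the 3 genes, and the highest cells that failed on number alone held 31 to 45. In CT-LCG these ranges were 100 to 118 and 36 to 45, so a gap lay at the limit there. A further 17 FT-LCG cells had at least 50 UMIs of the 3 genes but fell under 50 per 10000, and they held 1368 UMIs of KRT25 against 42 of TCHH and 91 of KRT27. Of the 17, 10 fell in a cluster named hair cortex or matrix-like and 4 in the cycling-like one. With the looser limit of 10 UMIs, 129 CT-LCG and 58 FT-LCG cells passed, but 113 of the CT-LCG cells had fewer than 50 UMIs of the 3 genes, and the median depth of all 129 was 1179 UMIs.

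**Figure D1:**
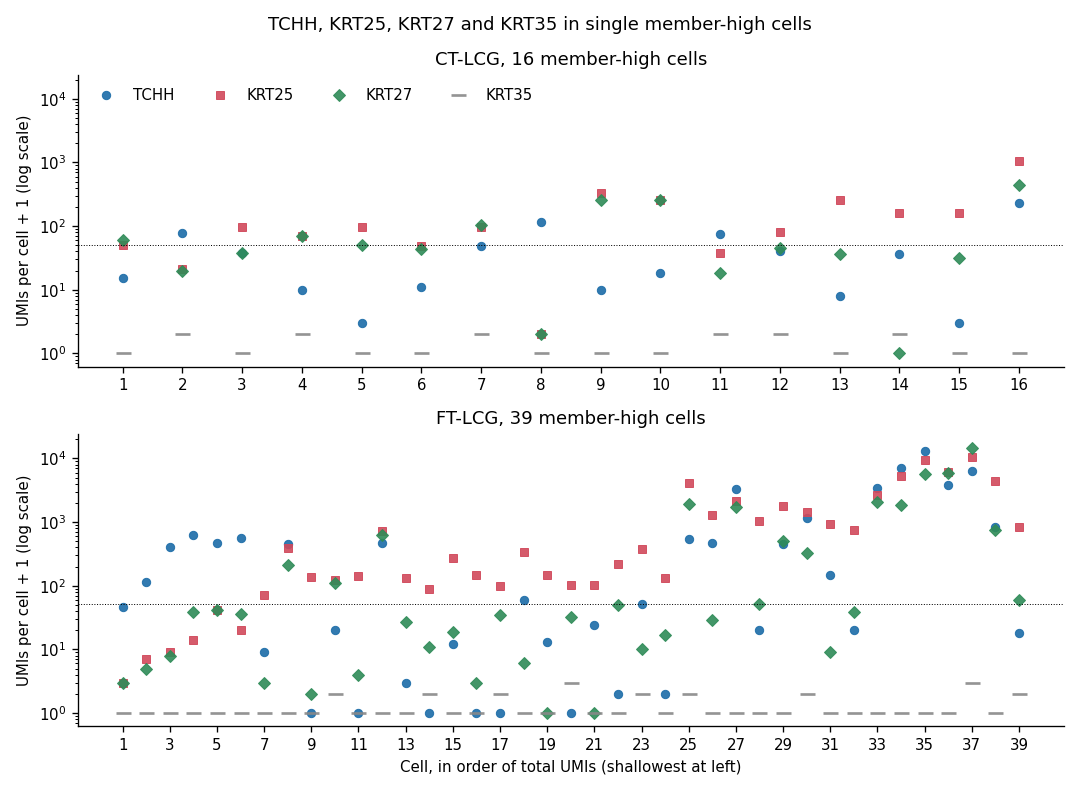
UMIs plus 1 (log scale) of TCHH, KRT25, KRT27 and KRT35 in each member-high cell, ordered by the total UMIs of the cell, for 16 CT-LCG and 39 FT-LCG cells; the dotted line marks 50 UMIs. The heights of the 3 genes differ within most cells, counts above 1000 UMIs appear in FT-LCG cells and for KRT25 in 1 CT-LCG cell, and KRT35 never passes 2 UMIs.

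The 3 genes did not always pass a limit of 50 UMIs together in these cells. With at least 50 UMIs taken as high, 13 of the 55 cells were high for all 3 genes, 20 for KRT25 alone, 8 for TCHH alone, 7 for KRT25 and KRT27, 4 for TCHH and KRT25, 1 for KRT27 alone and 2 for none singly. The limit is a number of UMIs, so a shallow cell can miss it for a gene that it holds. Median depth was 40961 UMIs for the cells high for all 3, 18833 for KRT25 alone and 2328.5 for TCHH alone. An FT-LCG cell of 2787 UMIs, counted under TCHH alone, held 41 of KRT25 and 40 of KRT27. Alone thus means under 50 UMIs of the other 2 genes, and not their absence. No cell was high for TCHH and KRT27 without KRT25. KRT27 was thus high without KRT25 in 1 cell only, of CT-LCG, and that cell held 60 UMIs of KRT27 and 49 of KRT25, just under the limit. Across the 16 CT-LCG cells the levels of KRT25 and KRT27 followed each other (Spearman rho 0.93) and TCHH followed neither (0.01 with KRT25 and 0.09 with KRT27). Across the 39 FT-LCG cells rho was 0.57 for KRT25 with KRT27, 0.71 for TCHH with KRT27 and 0.37 for TCHH with KRT25. These are descriptions over cells of 1 library that were chosen by the same counts.

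The patterns fell in different places. The 14 FT-LCG cells with KRT25 alone held 71 to 739 KRT25 UMIs (median 133.5). They held 0 to 23 TCHH UMIs and 0 to 48 KRT27 UMIs. Of these cells, 8 fell in cluster 10, named hair cortex or matrix-like, and 4 were placed as cycling-like. Hair shaft markers were low over the 14: KRT35 stood at 0.143 per 10000, KRTAP11-1 at 0.107 and KRTAP3-1 at 0.0715. All kept FT-LCG cells stood at 3.38, 1.28 and 0.522. HOXC13 (0.143 against 0.118) and LEF1 (0.107 against 0.0584), the other markers behind that name, were not lower, each on few UMIs. Whether the 8 are cortex cells was not tested. The 5 FT-LCG cells with TCHH alone held 112 to 625 TCHH UMIs (median 476) against 6 to 41 of KRT25 and 4 to 40 of KRT27. All 5 lay in cluster 5, which was left unnamed, and they were shallow, with a median of 2265 UMIs. In CT-LCG, 2 of the 3 cells with TCHH alone lay in the same cluster 5, with 73 to 116 TCHH UMIs over the 3 cells. The 4 CT-LCG cells with KRT25 and KRT27 held 70 to 329 UMIs of KRT25 and 69 to 255 of KRT27, and all 4 lay in cluster 0, a cluster of shallow cells. TCHH, KRT25 and KRT74 were among the genes most raised in that cluster over the other cells. That ranking included the 10 CT-LCG and 3 FT-LCG member-high cells of cluster 0, so it is not a second observation. Leaving them out lowered TCHH there from 22.87 to 19.83 per 10000 in CT-LCG and from 32.87 to 3.875 in FT-LCG. KRT25 went from 31.71 to 15.41 and from 37.56 to 9.463. Among the clusters compared, cluster 0 still had the highest level of both genes in each library. KRT74 was not recounted in this way.

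KRT35 was low in the member-high cells. Among the 55 member-high cells the highest KRT35 count was 1 UMI in CT-LCG and 2 UMIs in FT-LCG. Cells that passed the same limits for KRT35 numbered 9 for CT-LCG and 89 for FT-LCG. Of these, 0 were member-high. Their highest counts of TCHH, KRT25 and KRT27 were 4, 2 and 3 UMIs in CT-LCG and 6, 44 and 4 in FT-LCG. Both kinds of cell were rare. The KRT35 cells were 0.261% of CT-LCG and 0.926% of FT-LCG cells, and the member-high cells 0.465% and 0.406%. Unrelated cells this rare could also share 0 cells, so the overlap of 0 is not read as a separation. High counts of the hair shaft keratin and of the sheath genes were not seen in the same cell of either library, and the nearest approach was 1 KRT35-rich FT-LCG cell with 44 UMIs of KRT25.

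The 12 FT-LCG cells high for all 3 genes carried these as a large part of their RNA. Their depth ran from 5288 to 139892 UMIs with a median of 44771.5, and 4.24% to 25.3% of the UMIs of a cell were TCHH, KRT25 or KRT27. They held 453 to 13037 UMIs of TCHH (median 2261.5), 384 to 10408 of KRT25 (median 3370) and 208 to 14717 of KRT27 (median 1798). The 1 CT-LCG cell of this pattern had 40961 UMIs, with 233 of TCHH, 1036 of KRT25 and 435 of KRT27, 4.16% of its total. The share in the CT-LCG cell lay just under the lowest of the 12 FT-LCG cells.

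In clusters built without the 3 genes, at the settings used, 6 of the 12 FT-LCG cells fell in the suprabasal epidermal-like cluster, 2 in the granular layer-like cluster, 2 among hair cortex or matrix-like cells and 2 in cluster 0. This placement depended on the settings: the FT-LCG cluster with most UMIs of the 3 genes was suprabasal epidermal-like with 40.8% of them, but hair cortex or matrix-like with 51.4% under another random seed. The markers of the suprabasal layer were nevertheless low in them. KRT1, a keratin of the suprabasal epidermis, stood at 0.669 UMIs per 10000 in the 12 cells and at 236 in the FT-LCG cells of the suprabasal epidermal-like cluster that were not member-high. KRT10, its partner keratin, stood at 1.71 against 543, and KRTDAP, a secreted protein of differentiating keratinocytes, at 1.39 against 147. What the 12 cells shared with that cluster were SBSN (suprabasin, 69.2 against 88.9 per 10000), DSG1 (6.39 against 8.14) and DSC1 (3.52 against 4.59), the last 2 being cadherins of the desmosome. LOR (loricrin), a protein of the granular layer, was at 0.232 per 10000 in the 12 cells and at 70.6 in the granular layer-like cluster.

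The genes of sheath hardening were next compared between the 12 FT-LCG cells high for all 3 genes and the 14 high for KRT25 alone. This grouping was made after the counts were seen. Among 1032 genes with at least 100 UMIs in both sets together, 12% were at least 2 times higher in the cells with all 3 and 16.4% at least 2 times lower. Of the 12 hardening enzymes and partners on the list, TGM3, PADI3, TCHHL1, CDSN and S100A3 had enough UMIs, and each passed only through the cells with all 3, since the KRT25 cells held 4, 6, 0, 1 and 0 of their UMIs. Their direction was thus fixed by the limit on UMIs, and they are given as levels and not as a count. PADI3, the deiminase that acts on trichohyalin in the follicle, stood at 4.32 per 10000 (3.87 to 4.81) against 0.215, a ratio of 20.1 (9.16 to 55.3), and was counted in 12 of the 12 cells. PADI1, a related deiminase, was counted in 11 of the 12 cells, at 0.99 per 10000 against 0.0358, with too few UMIs for the list count.

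The levels of TGM3, TCHHL1 and S100A3 rested mainly on 1 cell. TGM3, the transglutaminase that cross-links trichohyalin, stood at 6.24 per 10000 (5.69 to 6.82) against 0.143, and was counted in 7 of the 12 cells, but 1 cell of 139578 UMIs held 385 of the 485 UMIs. Without that cell TGM3 stood at 1.57 (1.28 to 1.91), a ratio of 11 (lower bound 4.15), and 71 of the 100 UMIs left lay in the cell of 28204 UMIs. TCHHL1 (trichohyalin-like 1), the neighbour of TCHH in the reference gene order, was counted in 3 of the 12 cells. Of its 352 UMIs, 327 lay in the cell of 139578 UMIs, and it fell from 4.53 to 0.392 per 10000 without that cell. S100A3, a calcium-binding protein of the hair cuticle and a substrate of PADI3, went from 1.38 to 0.267 per 10000 without it. CDSN (corneodesmosin), an adhesion protein of cornifying cells, was counted in 5 of the 12 cells. It went from 6.08 to 3.23 without the cell of 139578 UMIs, with 206 of its 473 UMIs left, against 1 UMI in the KRT25 cells. Of these 206, 160 lay in 1 further cell, of 126209 UMIs, so CDSN too rested mainly on few cells. Without the cell of 139578 UMIs PADI1 went from 0.99 to 0.752. PADI3 went to 3.61 per 10000 and a ratio of 16.8 (7.60 at its lower bound).

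Looking at the 12 cells one by one, KRT74 was counted in 3 of them. Cells of 28204, 31767 and 139578 UMIs held 18, 108 and 50 UMIs of KRT74, a type II keratin of the sheath, while the other 9 cells held 0. The same 3 cells held all TCHHL1 UMIs of the 12 (8, 17 and 327) and all S100A3 UMIs (4, 13 and 90). They also held 957, 1057 and 3230 UMIs of PRR9, a proline-rich protein encoded beside LOR, against 15 to 574 in the other 9. CRNN (cornulin), a protein of the same fused S100 family as trichohyalin, was at 31, 41 and 170 UMIs in them, and 1 of the other cells reached 44. TGM3 was 71, 17 and 385 UMIs in them and 0 to 7 in the other 9, which included cells of 110892 and 139892 UMIs. These cells were singled out after their counts were seen. KRT26, another type I keratin of the sheath, was counted in 4 of the 12 cells, at 13, 1, 1 and 17 UMIs.

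In the CT-LCG cell high for all 3 genes KRT74 reached 152 UMIs and PADI3 31, but TGM3, TCHHL1, CDSN and S100A3 were at 0. TGM3 and TCHHL1 were missing from several of the 12 FT-LCG cells too, so 1 cell cannot show a difference between the libraries.

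Regulators of the lineage were also counted in both sets. GATA3, a transcription factor needed for inner root sheath differentiation, stood at 5.26 per 10000 in the cells with KRT25 alone. It stood at 2.60 (2.25 to 2.98) in the cells with all 3, and was counted in 13 of the 14 and 11 of the 12 cells. CUX1, a homeodomain factor of the sheath lineage, stood at 5.65 against 2.11 and was counted in all cells of both sets. Of the 12 listed regulators among the features, 3 had enough UMIs, 0 were at least 2 times higher with all 3 and GATA3 and CUX1 were at least 2 times lower. The 3 genes made up 16.2% of the UMIs of the cells with all 3 and 1.01% of those with KRT25 alone. This lowers the level per 10000 of every other gene in the former, and the median gene tested had a log2 ratio of -0.413. The part that this played in the regulators was not tested. Without the cell of 139578 UMIs GATA3 stood at 2.65, a ratio of 0.504 that no longer passes 2-fold, and CUX1 at 2.38, a ratio of 0.422. DLX3, another homeodomain factor of the follicle, was at 2.15 with KRT25 alone and at 1.63 with all 3. ID2 and ID3, inhibitors of helix-loop-helix factors, were 5.37 and 2.37 times higher with KRT25 alone.

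Cell cycle genes were counted in some of the cells with KRT25 alone. UBE2C, which helps to degrade mitotic cyclins, was the 1 gene of the 5 listed with enough UMIs, 115 of them in the KRT25 cells and 1 in the cells with all 3, so its direction was fixed by the limit. It stood at 4.11 per 10000 in the KRT25 cells, counted in 5 of 14, with 55.7% in 1 cell, against 0.0129 in the cells with all 3. TOP2A, a DNA topoisomerase of dividing cells, stood at 2.65 (6 of 14 cells) against 0.0386. CENPF was at 2.47 against 0.0257, and MKI67, the proliferation marker, at 0.858 against 0, at least 22.2-fold higher than the floor of 3 counts over the 12 cells. These genes were seen in 5 or 6 of the 14 cells, of which 4 lay in the cycling-like cluster. That cluster is named by these same genes, which were not kept out of building it. A place in it is therefore not a second observation.

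**Figure D2:**
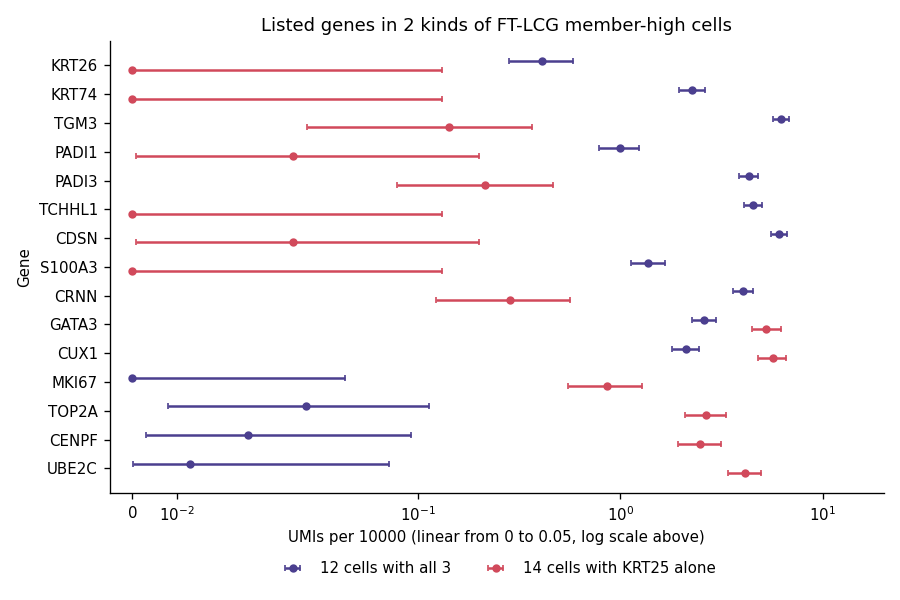
Level (UMIs per 10000, linear up to 0.05 and log scale above) of listed genes in the 12 FT-LCG cells with at least 50 UMIs of all 3 genes and the 14 with at least 50 of KRT25 alone; points are summed counts and bars 95% exact Poisson intervals. Hardening genes and KRT74 lie to the right in the cells with all 3, and GATA3, CUX1 and the 4 cell cycle genes in the cells with KRT25 alone.

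Markers of other cell types were few in the 12 cells, with exceptions in single cells. One cell of 126209 UMIs held 364 of the 365 KRT6A UMIs and 117 of the 121 SOX9 UMIs, both markers of the outer root sheath, together with 345 UMIs of KRT5. Another, of 56005 UMIs, held 24 UMIs of SELE and 10 of PECAM1, endothelial genes that were at 0 in the other 11 cells. Of the 6 fibroblast markers COL1A2 had 16 UMIs over 3 cells, COL1A1 had 1 and the other 4 were at 0. All 5 markers of T cells, all 5 of melanocytes and all 5 of the dermal papilla were at 0, and of the 5 measured macrophage or dendritic markers CD74 had 5 UMIs and CD68 had 2. The part that mixed droplets played was not tested, and neither of the 2 cells with such markers is among the 3 with KRT74.

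The leading genes of the member-high cells were ranked over both libraries together against other deep cells, those with at least 5000 UMIs, so that they lead in both libraries by construction. Only the 173 genes with at least 100 UMIs in the member-high cells of each library were ranked. A gene could thus enter only through its counts in these cells, and genes of lower counts, such as PADI3, could not enter. The list is not of the most raised of all genes. Of the member-high cells 32 of 39 were deep in FT-LCG but 5 of 16 in CT-LCG, where mostly shallower cells were thus set against deep ones. PRR9 stood at 49.6 per 10000 in the CT-LCG and 54.2 in the FT-LCG member-high cells, 696 and 521 times its level in other deep cells, and was counted in 15 of 16 and 36 of 39 cells. LOC102177231, an unnamed gene that lies between KRT74 and KRT5 in the goat reference, stood at 149 and 349 per 10000, 225 and 875 times higher, and was counted in 16 of 16 and 39 of 39. FABP9, a fatty acid binding protein, stood at 30.7 and 56.2 per 10000, 105 and 472 times higher, in 13 of 16 and 19 of 39 cells. LOC102168573, between KRT27 and KRT10 in the reference, was 841 and 72.9 times higher, in 6 and 21 cells. KRT74 was 1183 and 347 times higher but came from 3 cells in each library. In CT-LCG 1 cell, the one high for all 3 genes, held 152 of the 163 UMIs of KRT74, 199 of the 262 of LOC102168573 and 507 of the 717 of PRR9, but 853 of the 2158 of LOC102177231. The other 5 of the 10 leading genes, ID3, ID2, LOC102175795, RBM3 and EEF1G, were 2.06 to 8.63 times higher. The CT-LCG folds depended on the cells set against. For the 129 cells under the looser limit PRR9 was 414 times higher than in other deep cells and 138 times higher than in all other cells, LOC102177231 was 140 and 52.1 times higher, and FABP9 75.3 and 29.4 times.

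Among all genes tested, 17.3% were at least 2 times higher in the 16 CT-LCG member-high cells and 5.86% in the 39 FT-LCG ones. The shares at least 2 times lower were 23.1% and 29%. In FT-LCG 8 of 11 hardening genes were at least 2 times higher and 2 lower, while in CT-LCG 1 of 6 was higher, namely TGM1, and 4 were lower. KLK5 and CTSV were at least 2 times lower in both libraries. Of the 8, PADI1, PADI3, PADI4 and TCHHL1 reached 100 UMIs only with the member-high cells, so their direction was fixed by the limit. The other 4 were TGM1 (3.08 times higher), TGM3 (6.80), CDSN (4.33) and S100A3 (7.46), and the cell of 139578 UMIs held 385 of the 494 TGM3 and 90 of the 107 S100A3 UMIs of the member-high cells. The count is therefore a description. PADI3 stood at 3.05 against 0.0104 per 10000 in CT-LCG and 2.74 against 0.0102 in FT-LCG. It had too few UMIs to be counted in CT-LCG, where 31 of its UMIs lay in the 1 cell high for all 3 genes. With its FT-LCG direction fixed by the limit, the 2 values are not read as agreement between the libraries. TGM3 was lower in CT-LCG, at 0.346 against 0.944 per 10000, and higher in FT-LCG, at 3.58 against 0.527. Of the regulators 4 were higher and 2 lower of 8 in CT-LCG, and 4 higher and 4 lower of 12 in FT-LCG. CUX1, DLX3 and FOXN1 were among the higher in both, and PRDM1 and EPHA4 among the lower in both. GATA3 was at least 2 times higher in CT-LCG only. All 4 hair shaft keratins tested in FT-LCG (KRT32, KRT35, KRT36 and KRT84) were at least 2 times lower, as were 29% of all genes, with a median log2 ratio of -3.89. In CT-LCG KRT35 was the 1 hair shaft keratin tested and was not called, with a log2 ratio of -0.55, and the 1 keratin-associated protein tested was at 0.67.

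Over the clusters the 3 genes and a small set of others had like profiles. Among 9946 genes that reached 100 UMIs in both libraries, the 5 most like TCHH over 18 clusters were LOC102177231 (mean Pearson r 0.97 over the libraries, on log2 of 1 plus UMIs per 10000), KRT27 (0.94), KRT25 (0.93), FABP9 (0.89) and PRR9 (0.85). The 5 most like KRT25 and the 5 most like KRT27 were the other 2 of the 3 genes with the same LOC102177231, FABP9 and PRR9. KRT35 ranked 121st for TCHH, 24th for KRT25 and 156th for KRT27. The profiles included the member-high cells, which held 91.8%, 86.2% and 90.8% of the FT-LCG UMIs of TCHH, KRT25 and KRT27. The FT-LCG profiles thus depended on where those cells fell. LOC102177231, FABP9 and PRR9 were already leading genes of those cells, so the likeness is not a second observation. The clusters share libraries and differ in depth, so these are orders of likeness without a test.

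Between the libraries the level of the 3 genes depended on the member-high cells. TCHH stood at 2.27 UMIs per 10000 (2.21 to 2.33) in CT-LCG and 5.60 (5.55 to 5.65) in FT-LCG, a ratio of 2.46 (2.40 to 2.53). KRT25 stood at 2.63 and 7.64, a ratio of 2.91 (2.84 to 2.98), and KRT27 at 1.602 and 4.748, a ratio of 2.96 (2.87 to 3.06). All 3 were thus past 2-fold in the direction of FT-LCG, as were 8.31% of the 13014 genes tested. They ranked 692nd, 487th and 468th by this ratio, so the difference was not exceptional among genes.

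Without the 55 member-high cells the order turned. TCHH then stood at 2.02 per 10000 in CT-LCG and 0.467 in FT-LCG, 4.33 times higher in CT-LCG (4.15 to 4.51). KRT27 stood at 1.09 and 0.442, 2.46 times higher in CT-LCG (2.34 to 2.58), and KRT25 at 1.64 and 1.07, 1.53 times higher in CT-LCG (1.48 to 1.59). So 2 of the 3 were past 2-fold in the direction of CT-LCG, where 7.31% of 12983 genes were. The cells were removed by the counts of these same genes and held 0.201% and 0.0381% of KRT35 UMIs, so KRT35 could hardly move, from 3.16 to 3.20 times higher in FT-LCG, and is no control for the removal. As a mean over cells, where each cell weighs the same, KRT35 was 1.15 times higher in FT-LCG. Differences between the 2 goats, the depth of the libraries and the share of follicle cells caught cannot be told apart in this design.

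**Figure D3:**
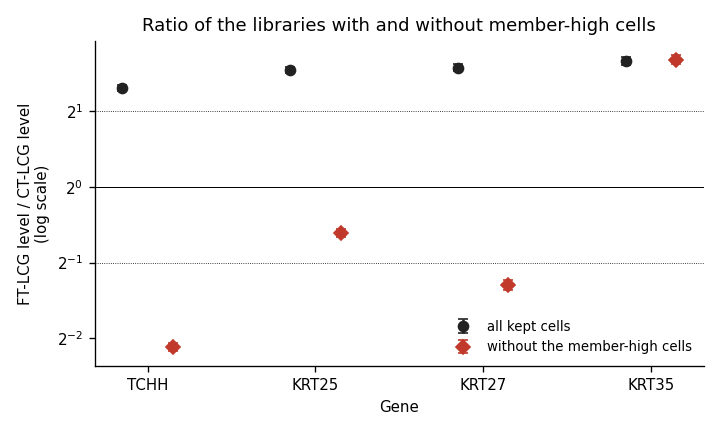
Level in FT-LCG divided by level in CT-LCG (log scale) for the 4 genes, over all kept cells (circles) and without the 55 member-high cells (diamonds), with 95% exact counting intervals; dotted lines mark 2-fold. TCHH, KRT25 and KRT27 move from above 2 to below 1, and KRT35, of which the removed cells held almost no UMIs, is at 3.16 and 3.20.

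Single UMIs of the 3 genes were found in many cells. Each cell was thinned to 1000 UMIs and shallower cells (369 of CT-LCG, 1039 of FT-LCG) were left out. TCHH was then counted in 38.1% (36.4% to 39.8%) of CT-LCG cells and 10.1% (9.46% to 10.8%) of FT-LCG cells, KRT25 in 35.8% and 18.3% and KRT27 in 28.0% and 11.3%. KRT35 was counted in 12.2% and 11.6%. Unthinned, TCHH was counted in 72.2% and 29.2%, KRT25 in 67.8% and 46.9% and KRT27 in 54.4% and 29.5%. The share went against the level for each of the 3 genes, higher in CT-LCG while the level was higher in FT-LCG, and no order of the libraries is read from it.

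The same single UMIs were found in cells that should lack these proteins. The fibroblast-like, endothelial-like, macrophage or dendritic-like, T cell-like and mast cell-like clusters held 319 CT-LCG cells (median 3852 UMIs) and 427 FT-LCG cells (median 3726). After thinning, TCHH was counted in 30.2% (25.04% to 35.76%) of the former and 9.04% (6.38% to 12.4%) of the latter, against 38.7% and 9.89% of all other cells that were not member-high, whose median depths were 2119.5 and 6376.5 UMIs. KRT25 was counted in 29.5% and 16.0%, against 36.1% and 18.1%, and KRT27 in 20.8% and 8.53%, against 28.4% and 11.2%. In FT-LCG the intervals of the 2 kinds of cell overlapped for all 3 genes. In CT-LCG the share was higher in the other cells for TCHH and KRT27, with intervals apart, but the dermal, vascular and immune cells still held most of it. The share of cells with a UMI of TCHH, KRT25 or KRT27 is therefore not read as a share of expressing cells in either library.

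With all cells, UMIs per cell in FT-LCG ran over 18 clusters from 0.208 to 56.5 for TCHH, as wide as from 0.146 to 54.7 for KRT35. The member-high cells were then left out, which removes the highest counts of the 3 genes and not those of KRT35, so the ranges that follow are not set against KRT35. In CT-LCG UMIs per cell ran over 19 clusters from 0.922 to 2.33 for TCHH (median 1.36), from 0.904 to 1.99 for KRT25 (median 1.07) and from 0.530 to 1.32 for KRT27 (median 0.704). In FT-LCG, over 18 clusters, it ran from 0.208 to 0.579 for TCHH (median 0.334) and from 0.225 to 0.697 for KRT27 (median 0.300). KRT25 was the exception: its median was 0.599, but the hair cortex or matrix-like cluster stood at 3.88 and the cycling-like cluster at 2.61. These 2 clusters still held 10 and 4 of the 17 FT-LCG cells with at least 50 UMIs of the 3 genes but under 50 per 10000. The 17 cells held 1368 KRT25 UMIs, so part of the exception came from high cells that the limit had kept.

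**Figure D4:**
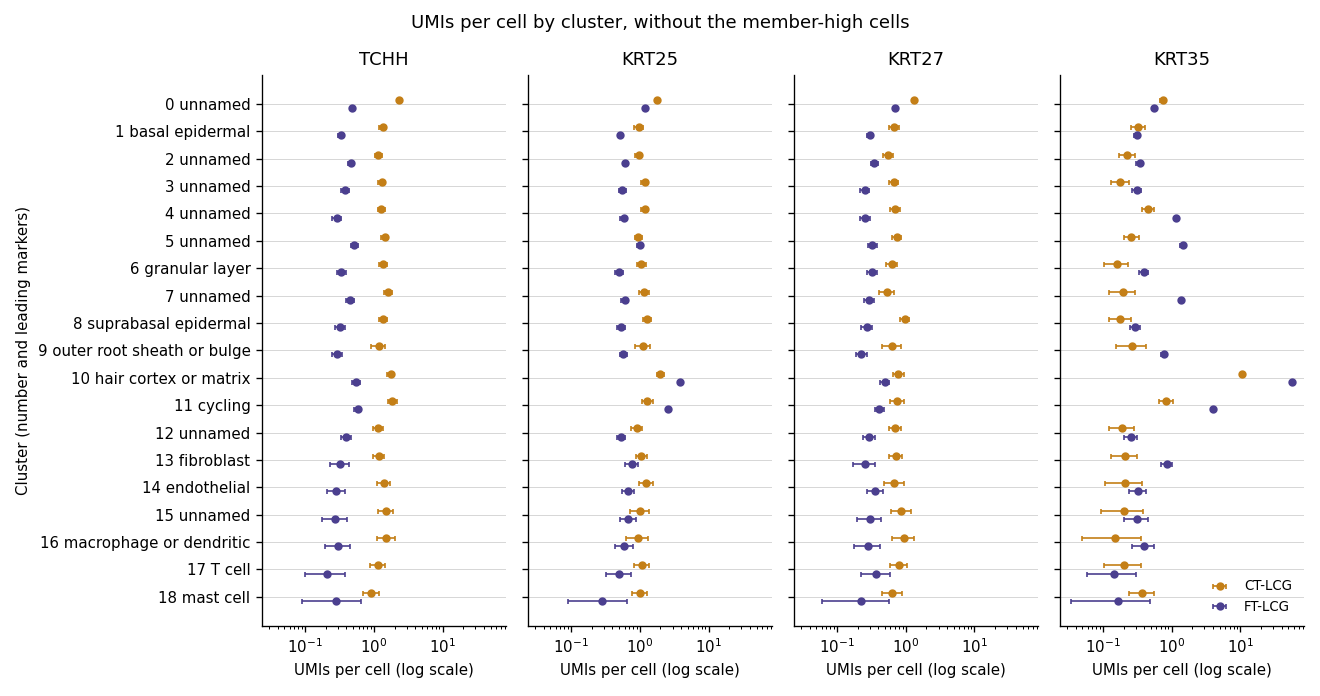
UMIs per cell (log scale) of TCHH, KRT25, KRT27 and KRT35 in each cluster and library, without the member-high cells; bars are 95% exact Poisson intervals. KRT25 stands out in clusters 10 and 11 of FT-LCG, and KRT35, whose own high cells were kept, peaks in cluster 10 of both libraries.

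The level per 10000 also differed with the depth of the cell. In CT-LCG, TCHH stood at 16.8 per 10000 in the 1604 low-depth cells (under 2000 UMIs) and at 0.839 in the 1298 deep cells (at least 5000 UMIs), a ratio of 20.0 (18.9 to 21.2). The ratio was 11.04 (10.49 to 11.62) for KRT25 and 17.01 (15.89 to 18.22) for KRT27, against 5.99 for KRT35 and 1.15 for the median gene. By it the 3 genes ranked 13th, 30th and 16th of 9673 genes, of which 9.49% were at least 2 times higher in low-depth cells. In UMIs per cell, TCHH went from 2.03 in low-depth to 1.57 in deep CT-LCG cells, a ratio of 1.30 where the level gave 20.0. KRT25 went from 1.75 to 2.45 UMIs per cell with all cells, but from 1.55 to 1.15 without the member-high cells, 5 of which were deep.

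In FT-LCG the ratio turned on the member-high cells, 32 of which were deep. Over all kept cells the ratio of low-depth to deep level was 0.96 for TCHH (0.917 to 1.00), 1.06 for KRT25 and 0.936 for KRT27, and 0 of the 3 were at least 2 times higher in low-depth cells, where 23.2% of 12200 genes were. Without the member-high cells the ratios were 13.9, 12.2 and 21.0, and all 3 were at least 2 times higher, where 22.8% of genes were. They then ranked 9th, 16th and 3rd of 12162 genes. The removal took out the deep cells with most UMIs of the 3 genes by their own counts. The deep cells then held 0.279 UMIs of TCHH, 0.682 of KRT25 and 0.219 of KRT27 per 10000, and the low-depth cells 3.86, 8.35 and 4.60.

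**Figure D5:**
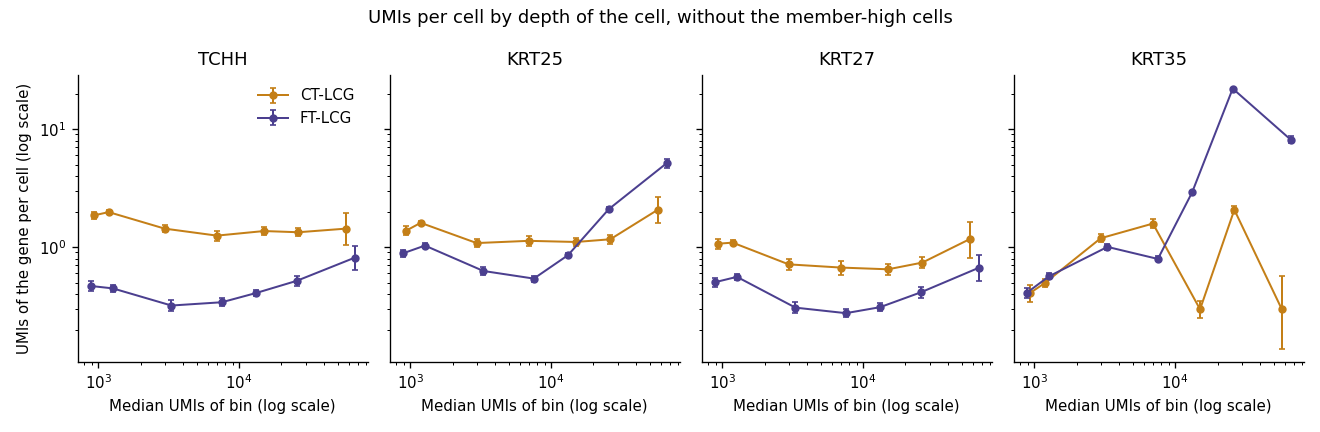
UMIs per cell (log scale) of the 4 genes against the median total UMIs of 7 bins of cell depth (log scale), without the member-high cells; bars are 95% exact Poisson intervals. TCHH and KRT27 stay within a narrow band in each library over more than 10 times in depth, KRT25 rises in the deepest FT-LCG bins, and KRT35, whose high cells were kept, peaks at 22.0 in the FT-LCG bin of 20000 to 50000 UMIs.

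The mix of the 3 genes was compared between depths and libraries. Of the summed UMIs of the 3 genes in CT-LCG, 42.5% were TCHH, 33.8% KRT25 and 23.7% KRT27 in low-depth cells without the member-high ones, 41.8%, 36.3% and 21.9% in deep cells and 43.0%, 33.2% and 23.8% in the barcodes left out. The member-high cells of CT-LCG had another mix, with 14.7% TCHH, 56.1% KRT25 and 29.3% KRT27. In FT-LCG the mix was 23.0%, 49.7% and 27.4% in low-depth cells, 23.6%, 57.8% and 18.6% in deep cells and 29.1%, 45.9% and 25.03% in the barcodes left out, against 32.0%, 41.1% and 26.9% in the member-high cells. KRT27 thus differed more between depths of FT-LCG than between the libraries. With the member-high cells included the part of TCHH went from 40.5% in low-depth to 30.5% in deep CT-LCG cells, and was 30.5% in deep FT-LCG cells. Over the CT-LCG clusters the part of TCHH ran from 35.8% to 48.7%, with a median of 41.8%. A cluster needed only 100 UMIs of the 3 genes and no intervals were computed, so no difference between cell types is read from this range. In FT-LCG the hair cortex or matrix-like cluster had the largest part of KRT25, 78.8%, followed by the cycling-like cluster with 72.5%. The third highest cluster had 57.1%.

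Co-detection was next compared with the product of the single shares. In cells thinned to 1000 UMIs, 49.1% (46.1% to 52.0%) of CT-LCG cells with KRT25 also held KRT27, against 16.2% of those without KRT25, and 60.5% of those with TCHH also held KRT25, against 20.7%. In FT-LCG 30.2% (28.0% to 32.6%) of KRT25 cells held KRT27, against 7.03%, and 46.1% of TCHH cells held KRT25, against 15.2%. The joint count was 1.69 to 1.75 times the product of the single shares in CT-LCG and 2.52 to 2.68 times in FT-LCG for the pairs of the 3 genes. Pairs with KRT35 gave nearly as much, 1.65 to 1.73 and 2.01 to 2.27.

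Within 6 bins of depth, unthinned, the joint counts were close to the product. Shares are higher without thinning, which leaves less room for a ratio above 1. Summed over the bins, the joint count was 1.03 times the product for TCHH with KRT25, 1.01 for TCHH with KRT27 and 1.03 for KRT25 with KRT27 in CT-LCG, and 1.00, 0.984 and 1.03 for the same genes with KRT35. In FT-LCG it was 1.09, 1.15 and 1.14 for the 3 pairs and 1.04, 1.05 and 1.11 with KRT35. Leaving out the member-high cells moved the FT-LCG pairs to 1.08, 1.14 and 1.13. Co-detection of the 3 genes at 1 UMI or more was thus close to that with KRT35, a keratin of another layer. High counts came together for all 3 in 13 cells, for KRT25 and KRT27 in 7 and for TCHH and KRT25 in 4. KRT35 was high in 0 of the 55 member-high cells, which unrelated rare cells could also give.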

How the data were processed

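The deposited values are raw UMI counts per gene and barcode, made by the authors with Cell Ranger (version 3.0.2 in the file header) and filtered with Seurat 3.1.1 to cells above 500 genes. The submitters' processing notes name a human and a mouse genome build; the goat build is not given in the sources used here, so no coordinates or sequences are printed. Levels are UMIs per 10000, summed over cells of a library, with exact Poisson intervals (ratios: exact conditional; shares: Clopper-Pearson), counting error only. A fold of 2 among genes with at least 100 UMIs was used to count genes. Cells were thinned without replacement to 1000 UMIs (random seed 1). Clusters used log-normalized counts, 2000 variable genes without the 3 genes and the listed sheath and shaft genes, 10 principal components, Harmony rewritten in numpy, a shared neighbour graph and Leiden at resolution 1 (leidenalg 0.10.2), and were named where at least 3 and the greater part of the markers of a type were at least 2 times higher than in the other clusters. A cluster with a median depth far below that of a library took no name unless a marker of the type was among its 10 most raised genes. The scripts recovered known folds, thinned totals and simulated clusters on simulated data. No doublet caller was run; leaving out cells above 50000 UMIs is 1 alternative. The 3 genes, the gene and marker lists and their rules (the 10 leading genes of cells rich in the genes, the 5 most alike, all listed genes) were chosen with earlier results of these data known. The member-high limit, the patterns of high genes and every value without member-high cells were chosen after seeing the data; the leading genes named are those of the member-high cells by the same rule. How reads shared by near-identical keratins were counted is not given in the sources used here, which bears on KRT25 and KRT27. Of the features, 27103 of 27137 had their identifier in the RefSeq gene table of assembly ARS1.2, which was used for names and neighbouring genes alone. No per-sample column was left unused.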

Additional observations from a re-analysis of the deposited data

Results flagged for a closer look

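The barcodes that the authors left out, with 500 genes or fewer, held the 3 genes above the limit that a count of 0 allows (0.0151 UMIs per 10000 for CT-LCG, 0.0301 for FT-LCG). In the 2659 CT-LCG barcodes TCHH stood at 25.2 UMIs per 10000 (24.5 to 25.9), KRT25 at 19.4 and KRT27 at 13.9, which is 11.1, 7.38 and 8.67 times the level of the kept cells. In the 1589 FT-LCG barcodes TCHH stood at 6.79, KRT25 at 10.7 and KRT27 at 5.84, which is 1.21, 1.40 and 1.23 times the level of the kept cells. In UMIs per barcode the values were 1.87, 1.45 and 1.04 in CT-LCG and 0.426, 0.671 and 0.366 in FT-LCG, within the range over clusters given above for each gene. At least 50 UMIs of the 3 genes were held by 11 CT-LCG and 4 FT-LCG barcodes among these. Whether empty droplets, broken cells or shallow cells gave these counts was not tested.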

How the results depend on the processing

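Alternatives were run one at a time. The summed level of the 3 genes in CT-LCG was 6.50 UMIs per 10000 and became 9.95 with all barcodes, 3.32 with cells of at least 1000 genes, 6.99 without cells above 50000 UMIs, 25.1 as a mean over cells and 4.75 without member-high cells. In FT-LCG it was 18.0 and became 6.29 without cells above 50000 UMIs, 10.5 as a mean over cells and 1.98 without member-high cells. FT-LCG over CT-LCG was 2.77 and became 1.81 with all barcodes and 5.40 with at least 1000 genes, and it turned to 0.900 without cells above 50000 UMIs, 0.417 as a mean over cells and 0.417 without member-high cells. Single genes turned under the same settings, TCHH to 0.707, 0.350 and 0.231, KRT27 to 0.715, 0.384 and 0.407, and KRT25 to 0.515 as a mean over cells and 0.653 without member-high cells. KRT35 went from 3.16 to 1.15 as a mean over cells. The share of cells with any of the 3 was 56.5% and 28.5% and became 94.3% and 70.2% unthinned, 47.4% and 23.0% at 500 UMIs, 47.5% and 25.3% at 2000 UMIs and 29.5% and 8.69% for 2 UMIs or more. KRT27 among KRT25 cells was 49.1% and 30.2% and became 56.6% and 35.1% unthinned, 37.8% and 22.7% at 500 UMIs, 30.9% and 17.7%, and 32.5% and 15.7% under the other 2. The summed low-depth to deep ratio was 15.1 in CT-LCG and became 18.9, 19.5 and 10.3 at other depth limits, 19.3 without rich cells and 22.3 without member-high cells. In FT-LCG it was 0.997 and became 0.864, 0.486, 0.595, 13.7 and 14.3. In FT-LCG KRT25 turned to 0.982, 0.538 and 0.546 at the other depth limits, KRT27 to 20.8 and 21.0 without rich and member-high cells, and KRT35 to 0.790 and 0.933. Within depth bins the joint count of KRT35 turned to 1.00 with TCHH and 0.984 with KRT25 in CT-LCG. The cluster with most UMIs of the 3 genes held 51.01% in CT-LCG, and 53.4% at resolution 0.5, 41.6% without Harmony, 48.8% with the listed genes included and 52.5% with another seed. In FT-LCG it was a suprabasal epidermal-like cluster with 40.8%, and with 65.3% at resolution 1.5, but an unnamed one at resolution 0.5 (81.2%) and with the listed genes (65.1%), and a hair cortex or matrix-like one with another seed (51.4%). Rich cells in CT-LCG went from 129 to 73 at 100 per 10000 and to 16 with at least 50 UMIs, and listed genes at least 2 times higher in them from 8 to 2 against KRT35-high cells. The cause of these changes was not tested. The alternatives without member-high cells were among those chosen after seeing the data. No paired analysis was possible because each fibre type has 1 library, and no result comes from a test. Depth limits what 1 shallow cell can show, and the median of CT-LCG was 2314 UMIs.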
